A study of Homo sapiens with 11 samples.

Results

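Genes for the synthesis, binding and breakdown of hyaluronan were followed in stable transfectants of 2 lung adenocarcinoma cell lines, A549 and HCC827. The 10 genes were the synthases HAS2 and HAS3, the hyaluronidases HYAL1, HYAL2 and HYAL3, the receptors CD44, LAYN and HMMR, and the link proteins HAPLN2 and HAPLN3, and they were held by 12 of the 42405 probes of the array, which named 20249 genes in all. Each gene was identified through the RefSeq accession of its probe. The genes were selected on their known roles after values of these arrays had been seen, so their values and calls are given as a description, and no p-value is printed for them.

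Cells of both lines had been infected with a retrovirus made from the pMXs-Neo vector and selected with G418. The arrays labelled mock came from cells with the empty vector and those labelled TRIM58-WT from cells given the FLAG-tagged coding sequence of wild-type TRIM58, a RING-finger protein of the tripartite motif family. A549 mock was covered by 3 numbered cells on 4 arrays, since arrays 1-1 and 1-2 carry the same control cell and were averaged to 1 replicate. A549 TRIM58-WT was covered by 3 arrays with separate numbers, each taken as 1 replicate. In HCC827 each group was covered by 2 cells on 2 arrays. The study's methods state that clones were isolated after selection and tested for TRIM58 protein, so in A549 a difference between groups cannot be told apart from a difference between clones. For HCC827 the study also speaks of crude transfectants, and whether the cells on these arrays were clones is not given in the sources used here. Nothing in the labels says whether the numbered cells were separate infections.

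Hyaluronan is a long, unbranched sugar chain of the extracellular matrix. Synthases in the plasma membrane build it from UDP-sugars and push it out of the cell, hyaluronidases cut it into fragments, and exoglycosidases in the lysosome finish its breakdown. Cells hold the chain through receptors such as CD44, while link proteins fasten proteoglycans to it. The length and amount of the chain are known to affect how epithelial cells adhere and migrate.

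Values are log2 signals from which the array's own 75th percentile was subtracted, and that percentile was 56.6 to 125 in signal units. At least 40.1% of all probes on an array carried the flag with which the scanner software marks a signal well above background. The probe of TRIM58 went against the labels: it was well above background only in A549 mock replicate 3, at -0.71, and lay at -4.84, -4.63 and -4.63 on the A549 arrays labelled TRIM58-WT. Whether that probe lies within the coding sequence of the vector was not analysed here, and each direction below is therefore that of arrays labelled TRIM58-WT against arrays labelled mock. Of the epithelial markers, KRT8, KRT18 and CDH1 were well above background on every array. EPCAM was on 1 of the 3 A549 TRIM58-WT arrays and KRT19 on none of them. All 5 markers were lower on the A549 TRIM58-WT arrays, without overlap. The log2 differences were -1.37 for KRT8, -0.65 for KRT18, -2.33 for CDH1 and -4.88 for EPCAM. In HCC827 none of the 5 was lower, with differences from 0.01 (EPCAM) to 0.61 (KRT8). The fibroblast markers COL1A2 and PDGFRB and the endothelial markers PECAM1 and VWF were not well above background on any array. The fibroblast marker COL1A1 was on all 3 A549 TRIM58-WT arrays and on no A549 mock array. The last fibroblast marker, ACTA2, was well above background on every A549 array and on no HCC827 array. In A549 its log2 difference was 0.69, without overlap. The lung marker NKX2-1 was well above background on every HCC827 array and on no A549 array. NAPSA, another lung marker, was on every HCC827 array, on 1 of the 4 A549 mock arrays and on 1 of the 3 A549 TRIM58-WT arrays. In HCC827 the log2 differences were -1.07 for NKX2-1 and -1.30 for NAPSA, without overlap. The lung markers SFTPB and SFTPC were not well above background on every array of any group. The part of these marker differences in the results below was not tested. A549 TRIM58-WT arrays 2 and 3 were close to each other, with an SD of 0.17 across probes (the SD of their difference over the square root of 2), against 0.20 between the arrays of the same control cell and at least 0.32 between other A549 mock arrays. TRIM58-WT arrays 2 and 3 lay on the same slide, and arrays 1-1 and 1-2 of the control cell on different slides. TRIM58-WT array 1 differed from arrays 2 and 3 by SDs of 0.58 and 0.56. The labels do not say whether TRIM58-WT arrays 2 and 3 came from separate clones. If they did not, the n of 3 is too high and the SEs in A549 could be too small. The calls of HYAL1, LAYN and HAPLN3 in A549 held when TRIM58-WT array 2 or array 3 was left out. In RNA from whole cultures, fewer cells expressing a gene and less RNA per cell cannot be told apart.

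In A549, 9 of the 10 genes could be tested, which required that all arrays of mock, all arrays of TRIM58-WT, or both showed a signal well above background. Of these 9 genes 3 were called, meaning a limma adjusted p under 0.05 and a 2-fold or larger change. LAYN and HAPLN3 were higher and HYAL1 was lower on the arrays labelled TRIM58-WT. HYAL1 and LAYN could be tested only through the group in which they were bright, so the counts given here lean on that choice. With a filter on every array, 7 genes were tested and 1, HAPLN3, was called, with no share over all genes to set beside it. Over all 11202 genes tested in A549, 7.95% were called, 3.89% higher and 4.06% lower. At an unadjusted p under 0.05, 6 of the 9 passed, namely the called genes together with CD44, HYAL2 and HYAL3, against 27.7% of all genes tested. Replicates of the 2 groups did not overlap for 7 of the 9, against 34% of all genes tested. The median change of the 9 genes was 0.21, beside 0.03 for all genes tested. In HCC827, 7 genes were tested and limma called 0 of them, against 1.1% of 12195 genes tested. The methods' t-test called 0 of the 7, with no share over all genes to set beside it. With only 2 replicates a group, that count cannot show that these genes were unchanged. At an unadjusted p under 0.05, 2 of the 7 passed (CD44 and HYAL3), against 21.8% of all genes. There the groups did not overlap for 5 of the 7, against 59.2% of all genes, and the median change was 0.36, beside 0.01 for all genes.

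**Figure D1:**
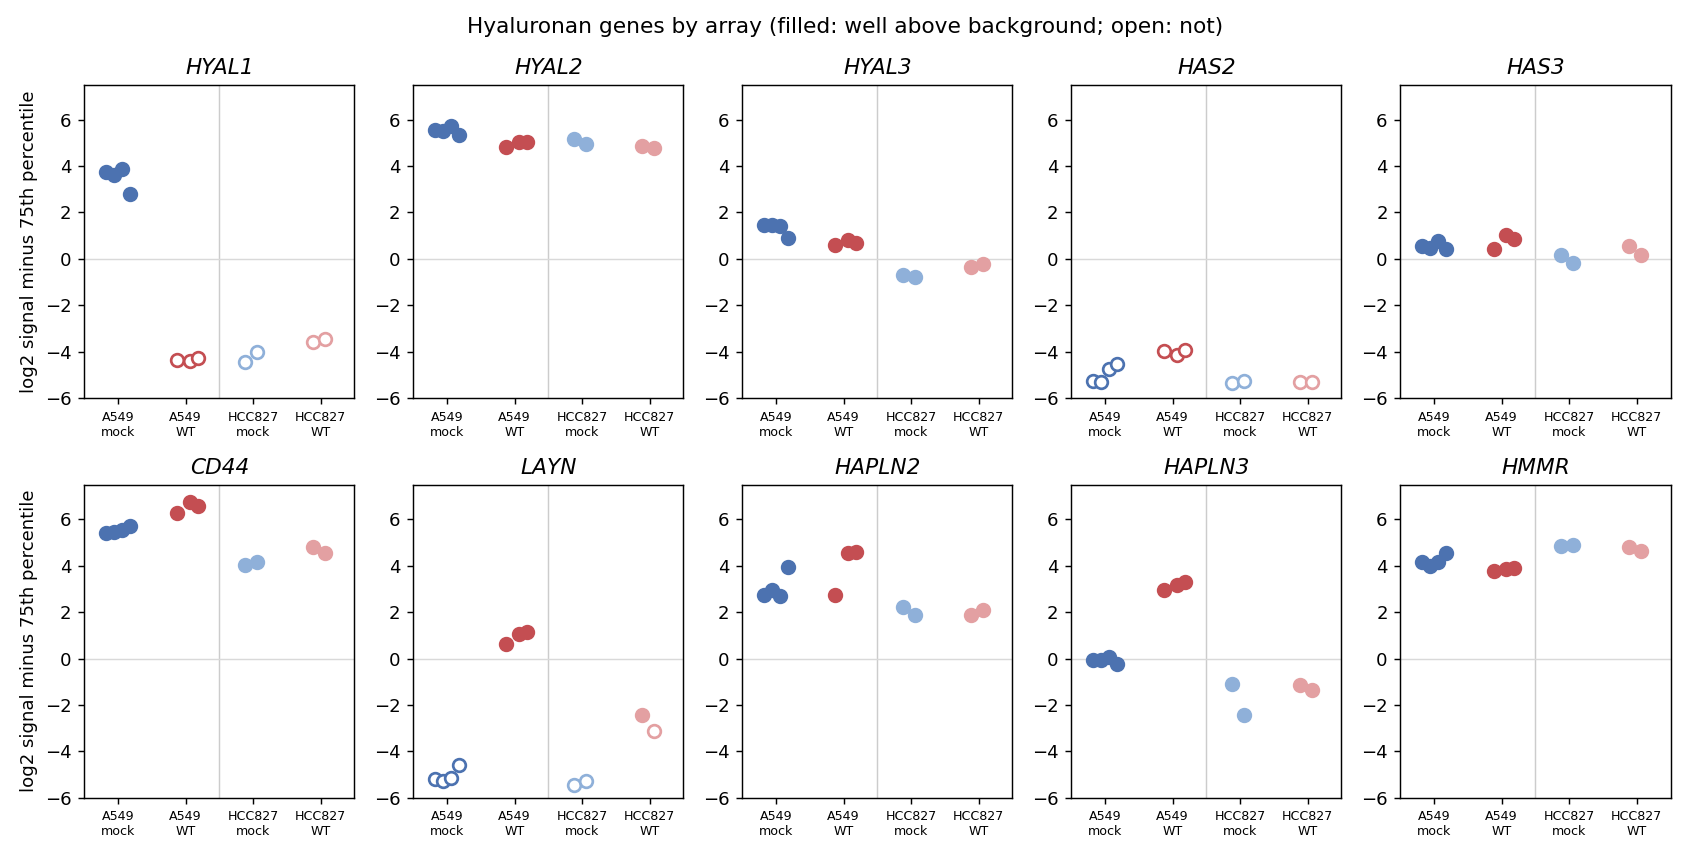
Log2 signal minus the 75th percentile of the array (y axis) for the brightest probe of each gene, with 1 point per array in the 4 groups (x axis); filled points were well above background and open points were not. HYAL1 was bright only on the A549 mock arrays, LAYN only on the A549 TRIM58-WT arrays and weakly on 1 HCC827 TRIM58-WT array, and HAS2 on none.

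HYAL1 encodes a lysosomal hyaluronidase that cuts hyaluronan taken up by the cell. Its log2 signal was 3.76 and 3.63 on A549 mock arrays 1-1 and 1-2, 3.87 on mock array 2 and 2.78 on mock array 3. It was -4.36, -4.38 and -4.26 on the 3 A549 TRIM58-WT arrays, none of them well above background. HYAL1 thus went from a clear signal on every mock array to background on every TRIM58-WT array, and only a bound of the change can be given, at least 67.5-fold lower. For this bound the mock mean was divided by a floor, taken on each TRIM58-WT array as the dimmest signal that still counted as well above background or the signal of the HYAL1 probe, whichever was larger. The fitted difference in log2 signal was -7.78 (SE 0.30, n = 3 and 3, 95% confidence interval -8.51 to -7.06), with -8.18 among the arrays of slide 1 and -7.53 among those of slide 2. The SE and interval describe the spread of readings that were at background in TRIM58-WT, and not the uncertainty in the size of the change. The fitted difference was -3.89 with normexp background correction, whose offset raises dim signals, and HYAL1 was not called by the methods' t-test. In HCC827 the gene was at background in all 4 arrays, at -4.45 and -4.03 on the mock arrays and at -3.57 and -3.48 on the others, so no level and no order can be read there.

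HYAL3, HYAL1 and HYAL2 lie next to each other on chromosome 3 (GRCh38.p14, 50292832 to 50299405, 50299893 to 50312381 and 50317808 to 50322745) within 29.91 kb, and are read from the same strand. The gap between HYAL3 and HYAL1 is 487 bases. Because their signals moved so unequally in A549, the 250 bases before a start of each gene are shown, 5′ to 3′ on the minus strand, with each CG, the dinucleotide at which DNA is methylated, in capitals. The sequences and starts are those of a RefSeq promoter table of GRCh38.p14, which lists 8 of the 10 genes. The start it gives for HYAL1 lies inside the gene's full span, and of the starts it gives for HYAL3 the outer one was taken.

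HYAL1, chr3:50303575-50303824: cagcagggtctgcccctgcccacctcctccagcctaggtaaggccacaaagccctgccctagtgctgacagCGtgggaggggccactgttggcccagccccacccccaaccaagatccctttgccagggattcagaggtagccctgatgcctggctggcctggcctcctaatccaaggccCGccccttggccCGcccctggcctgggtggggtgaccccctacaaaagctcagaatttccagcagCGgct
HYAL2, chr3:50322746-50322995: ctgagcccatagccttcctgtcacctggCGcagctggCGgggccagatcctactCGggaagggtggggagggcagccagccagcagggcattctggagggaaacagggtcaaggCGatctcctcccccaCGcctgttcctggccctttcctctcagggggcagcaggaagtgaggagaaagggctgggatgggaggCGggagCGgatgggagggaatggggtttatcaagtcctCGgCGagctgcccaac
HYAL3, chr3:50299406-50299655: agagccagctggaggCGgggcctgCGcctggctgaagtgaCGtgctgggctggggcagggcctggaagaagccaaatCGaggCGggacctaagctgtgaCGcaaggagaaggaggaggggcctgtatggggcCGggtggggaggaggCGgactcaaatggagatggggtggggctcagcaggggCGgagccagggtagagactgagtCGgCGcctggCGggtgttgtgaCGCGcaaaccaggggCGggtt

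The window of HYAL1 held 4 CG, that of HYAL2 9 and that of HYAL3 15. The median over 35114 such windows in the table was 11, at least 1 CG stood in 93.9% of them, and 29.3%, 45.9% and 57.1% of the windows held fewer than those of HYAL1, HYAL2 and HYAL3. CG reads the same on both strands. These counts describe the letters of the reference and carry no measurement of methylation in these cells.

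HYAL2 encodes a hyaluronidase anchored at the cell surface that makes the first, coarse cuts in the chain. It gave log2 signals of 5.56, 5.51, 5.74 and 5.34 on A549 mock arrays 1-1, 1-2, 2 and 3 and of 4.82, 5.03 and 5.05 in TRIM58-WT replicates 1 to 3. All TRIM58-WT values lay below all mock values, with a difference of -0.57 (SE 0.18) that was not called. In HCC827 the gene gave 5.17 and 4.95 with the empty vector and 4.88 and 4.78 in TRIM58-WT, a difference of -0.24 (SE 0.15), or -0.52 with outlier spots kept. A549 mock stood above the other groups, and A549 TRIM58-WT overlapped with both HCC827 groups.

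HYAL3 belongs to the same enzyme family, and its own activity is less well defined. Its brighter probe gave log2 signals of 1.45, 1.47, 1.44 and 0.91 on A549 mock arrays 1-1, 1-2, 2 and 3 and 0.59, 0.82 and 0.70 in TRIM58-WT. In HCC827 it gave -0.67 and -0.78 in mock, and -0.34 and -0.22 on the TRIM58-WT arrays. The groups followed the order A549 mock, A549 TRIM58-WT, HCC827 TRIM58-WT and HCC827 mock without overlap, so the difference was -0.57 (SE 0.20) in A549 and 0.44 (SE 0.14) in HCC827, neither of them called. The second probe of the gene gave differences of -0.55 in A549 and 0.40 in HCC827.

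The genes around this block were also read, as the 5 on each side in the RefSeq table together with NAA80, which lies between HYAL3 and HYAL1 by start. Of these, IFRD2, NAA80, TUSC2, RASSF1 and NPRL2 were tested in A549, ZMYND10 was too dim to test, and 5 had no named probe. The log2 differences in A549 were -0.07 (SE 0.29) for IFRD2, -0.21 (SE 0.15) for NAA80, -0.07 (SE 0.15) for TUSC2, -0.91 (SE 0.75) for RASSF1 and -0.08 (SE 0.15) for NPRL2. None of these 5 was called by limma in A549, with adjusted p values from 0.429 to 0.914, and none in HCC827. The 588 genes tested on chromosome 3 had a median difference of 0.01 in A549. HYAL1 was therefore the single called gene among the 8 tested from IFRD2 to NPRL2.

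**Figure D2:**
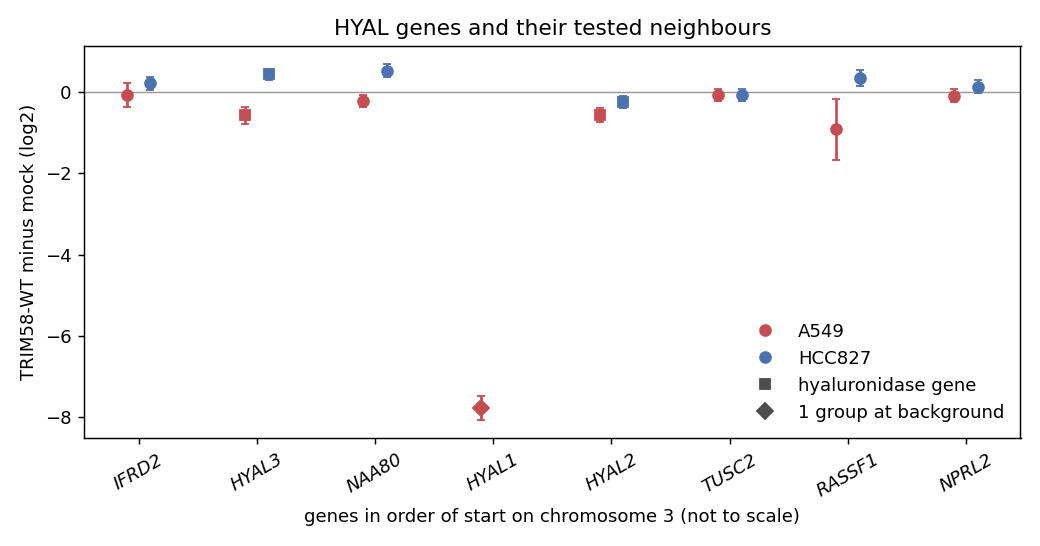
Log2 difference between arrays labelled TRIM58-WT and mock (y axis, bars are the SE from limma) for HYAL3, HYAL1, HYAL2 and their tested neighbours in order of start on chromosome 3 (x axis, not to scale), in A549 (red) and HCC827 (blue). HYAL1 stands at -7.78 in A549, where its TRIM58-WT arrays were at background (diamond), while the 7 other genes lie between -0.91 and -0.07.

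HAS2 encodes the synthase that makes long chains in many epithelial and stromal cells, and HAS3 one that makes shorter ones. HAS2 was not well above background on any of the 11 arrays, so no change can be given for it. HAS3 gave log2 signals of 0.55, 0.45, 0.77 and 0.42 on A549 mock arrays 1-1, 1-2, 2 and 3, and of 0.43, 1.01 and 0.86 in TRIM58-WT. These groups overlapped, and the difference was 0.21 (95% confidence interval -0.31 to 0.72), or -0.16 with a shift by the median of each array. In HCC827 HAS3 gave 0.17 and -0.16 in mock, and 0.56 and 0.18 on the TRIM58-WT arrays, a difference of 0.36 (95% confidence interval -0.20 to 0.93). A second probe of HAS3 was well above background on 2 of the 4 A549 mock arrays and 1 of the 3 TRIM58-WT arrays, too few to be tested in A549, and its difference in HCC827 was -0.19, opposite in sign to that of the brighter probe.

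LAYN encodes layilin, a membrane receptor with a C-type lectin domain that binds hyaluronan. Its log2 signal was -5.21, -5.29, -5.14 and -4.59 on A549 mock arrays 1-1, 1-2, 2 and 3, none of them well above background, and 0.62, 1.07 and 1.14 in TRIM58-WT, all of them well above it. The gene was at least 14.2-fold higher by the bound described for HYAL1. The fitted log2 difference was 5.93 (SE 0.25, n = 3 and 3), with 5.79 on slide 1 and 6.04 on slide 2, and 1.92 with normexp background correction. Its SE, as for HYAL1, describes readings that were at background in 1 group. In HCC827 LAYN lay at -5.44 and -5.27 in mock, both at background, and at -2.43 and -3.14 in TRIM58-WT, of which only the first was well above background. LAYN was therefore not tested in HCC827. Without HCC827 TRIM58-WT replicate 2, the dim one, it met the filter through the 1 array left in that group. That fit follows from which array was left out, so it cannot decide whether LAYN changed in HCC827.

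CD44 encodes the main surface receptor for hyaluronan. It gave log2 signals of 5.43, 5.46, 5.54 and 5.70 on A549 mock arrays 1-1, 1-2, 2 and 3 and of 6.28, 6.77 and 6.58 in TRIM58-WT. In HCC827 it gave 4.06 and 4.18 in mock, and 4.82 and 4.55 on the TRIM58-WT arrays. The groups did not overlap in either line, and the order was A549 TRIM58-WT, A549 mock, HCC827 TRIM58-WT, HCC827 mock. The difference in A549 was 0.98 (SE 0.19), a 1.97-fold change that stayed just under the 2-fold limit of a call, and in HCC827 it was 0.57 (SE 0.16). CD44 was called in A549 without mock replicate 3, at 1.05, without TRIM58-WT replicate 1, at 1.11, or with the 4 mock arrays counted separately, at 1.01. A shift by the median of each array, which lowered the median change of all tested probes in A549 by 0.37, gave 0.61.

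HMMR encodes a hyaluronan-binding protein that also sits on the mitotic spindle, and its RNA is known to peak in G2 and mitosis. It gave log2 signals of 4.16, 4.01, 4.17 and 4.55 on A549 mock arrays 1-1, 1-2, 2 and 3 and of 3.79, 3.85 and 3.89 in TRIM58-WT, without overlap. The difference of -0.42 (SE 0.18) was not called. In HCC827 it gave 4.87 and 4.89 in mock, and 4.80 and 4.65 on the TRIM58-WT arrays, a difference of -0.15 (SE 0.14). HMMR lies on chromosome 5, whose 490 tested genes had a median difference of -0.48 in A549 and -0.02 in HCC827. Of the G2 and mitosis genes set beside HMMR, CCNB1, a mitotic cyclin, had a difference in A549 of -0.37, the mitotic kinase AURKA -0.23, the spindle protein TPX2 0.23 and the proliferation marker MKI67 0.28. None of these 4 was called in either line by limma, and PLK1 had no named probe.

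HAPLN3 encodes a link protein found in several tissues, and HAPLN2 one best known from the brain. HAPLN3 gave log2 signals of -0.08, -0.08, 0.09 and -0.24 on A549 mock arrays 1-1, 1-2, 2 and 3 and of 2.95, 3.17 and 3.32 in TRIM58-WT. All arrays were well above background, so the 9.32-fold increase was measured on both sides, at a log2 difference of 3.22 (SE 0.18, 95% confidence interval 2.79 to 3.65). It was 2.94 among the arrays of slide 1 and 3.40 among those of slide 2, and 2.02 with normexp background correction. In HCC827 HAPLN3 gave -1.10 and -2.45 in mock, and -1.15 and -1.35 on the TRIM58-WT arrays, and the groups overlapped.

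HAPLN2 had an SD of 0.69 within A549 mock and 1.06 within A549 TRIM58-WT, and the groups overlapped. Its log2 signal was 2.76, 2.96, 2.69 and 3.97 on A549 mock arrays 1-1, 1-2, 2 and 3 and 2.74, 4.57 and 4.58 in TRIM58-WT replicates 1 to 3. The high arrays were mock 3 and TRIM58-WT 2 and 3, the same 3 arrays whose 75th percentile was low, at 60.3, 62.5 and 56.6, against 90.5 to 103 on the other A549 arrays. They also lay on slide 2, as did mock array 1-2, which was not high. The part of array brightness or slide in this pattern was not tested. The difference was 0.79 (SE 0.59), with 0.02 on slide 1 and 1.11 on slide 2. HCC827 gave 2.24 and 1.87 in mock, and 1.87 and 2.09 on the TRIM58-WT arrays, below every A549 array.

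**Figure D3:**
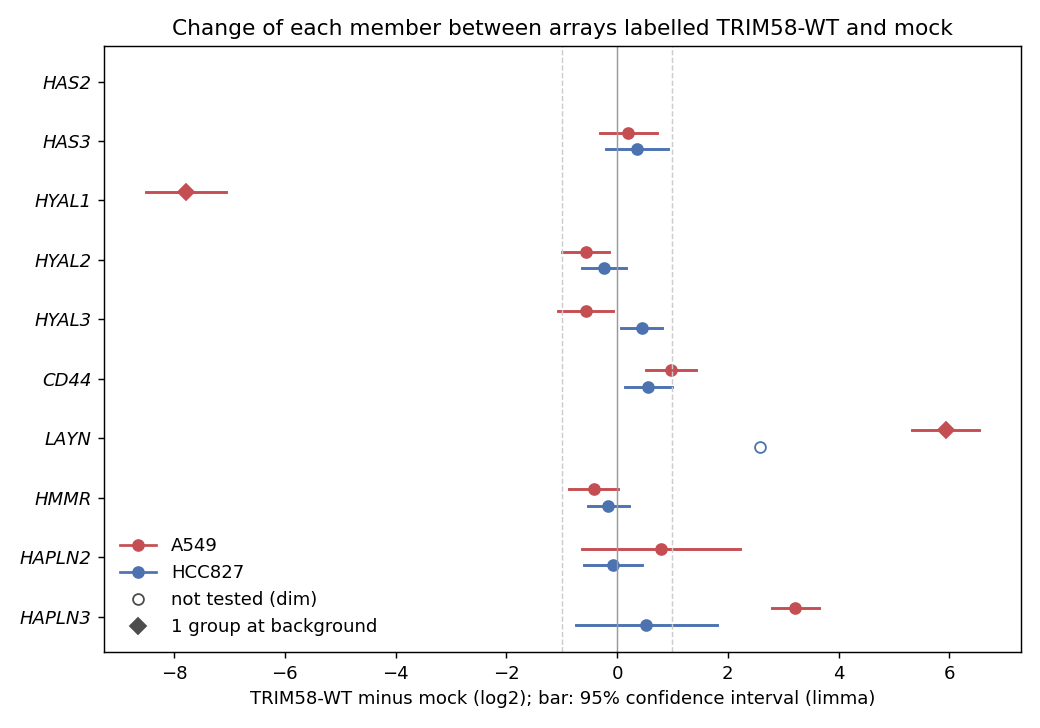
Log2 difference between arrays labelled TRIM58-WT and mock (x axis) for each gene in A549 (red) and HCC827 (blue), with the 95% confidence interval from limma; dashed lines mark a 2-fold change. HYAL1 (-7.78), LAYN (5.93) and HAPLN3 (3.22) lie far outside them in A549, diamonds mark genes at background in 1 group, the open point is LAYN in HCC827, which was not tested, and HAS2 was at background throughout.

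Whether the change differed between the lines was read from a contrast of the A549 change minus the HCC827 change, fitted by limma to the replicates of all 4 groups and called at an adjusted p under 0.05 alone. Of the 9 genes that could be tested, 3 were called, HYAL1, LAYN and HAPLN3, beside 4.62% of 12842 genes overall. The differences in log2 change were -8.50 (SE 0.44) for HYAL1, 3.36 (SE 0.41) for LAYN and 2.69 (SE 0.50) for HAPLN3. HYAL1 was at background on every array but the A549 mock arrays, and LAYN on all mock arrays of both lines and 1 of the 2 HCC827 TRIM58-WT arrays. Both entered this contrast through the 1 group of A549 in which they were bright, and their sizes of difference rest in part on background. HYAL1 was already at background in HCC827 mock, so no fall could be seen there. Its loss in A549 therefore had to appear as a difference between the lines, and its call does not show that the lines responded differently. With a filter on every array neither could be tested, and 1 gene of 7, HAPLN3, was called. The call of HAPLN3 was lost without A549 mock replicate 1 or 2, A549 TRIM58-WT replicate 2 or 3, or either HCC827 TRIM58-WT replicate, at differences of 2.59 to 2.79. HYAL3 had changes of opposite sign in the lines, with a difference of -1.01 (95% confidence interval -1.66 to -0.36) that was not called. It was called without A549 mock replicate 3, at -1.19, or with the 4 mock arrays counted separately, at -1.06. For CD44 the difference between lines was 0.41 (95% confidence interval -0.21 to 1.04), and 0.01 with a shift by the median.

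The mock arrays of the lines were set side by side, without a test. CD44 was higher in A549 mock than in HCC827 mock by 1.45 on the log2 scale, HYAL3 by 2.00, HAPLN3 by 1.70, HAPLN2 by 1.12 and HYAL2 by 0.47, and HMMR was lower, at -0.61. HYAL1 had a clear signal in A549 mock and none above background in HCC827. All HCC827 arrays lay on slide 1, and among the arrays of that slide the differences were 1.37 for CD44, 2.17 for HYAL3, 1.78 for HAPLN3, 0.67 for HAPLN2, 0.58 for HYAL2 and -0.72 for HMMR.

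A further 36 genes with a role in hyaluronan biology were read in the same fits. In A549 18 of them were tested, 5 with a difference above 0 and 13 below, at a median of -0.05. Limma called 0 of these 18, against 7.95% of all genes tested. The methods' t-test also called 0, with no share over all genes to set beside it. At an unadjusted limma p under 0.05, 1 of the 18 passed, against 27.7% of all genes. That gene was CEMIP2, a cell-surface hyaluronidase named after its values were seen, with a difference of -0.76 (SE 0.27). CEMIP2 was called without TRIM58-WT replicate 1, and CEMIP, a hyaluronan-degrading protein too dim to be tested otherwise, without mock replicate 3, each giving 1 called gene.

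In HCC827 18 of the 36 were tested, 10 with a difference above 0 and 8 below. Limma called 1 of these 18, VCAN, against 1.1% of 12195 genes tested. At an unadjusted p under 0.05, 4 of the 18 passed, against 21.8% of all genes. VCAN encodes versican, a large matrix proteoglycan that binds hyaluronan. Its log2 signal was 1.30 and 1.13 in HCC827 mock and -0.41 and -0.39 in TRIM58-WT, a difference of -1.61 (SE 0.14, limma, adjusted p = 0.0361). In A549 VCAN gave 0.78, 0.67, 0.71 and 1.45 on mock arrays 1-1, 1-2, 2 and 3 and 2.59, 0.50 and 0.72 in TRIM58-WT, which overlapped. The call in HCC827 was lost when any 1 of the 4 replicates was left out. Such a fit has 1 replicate in a group, and the difference of VCAN was then -1.69 to -1.53. None of the 19 genes of the list tested for a difference of the change between lines was called by limma, against 4.62% of 12842 genes. At an unadjusted limma p under 0.05, 3 of the 19 passed, against 20.9% of all genes. The other hyaluronan receptors of the list, LYVE1, STAB1 and STAB2, named for their role after their values were seen, were too dim to be tested in either line.

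**Figure D4:**
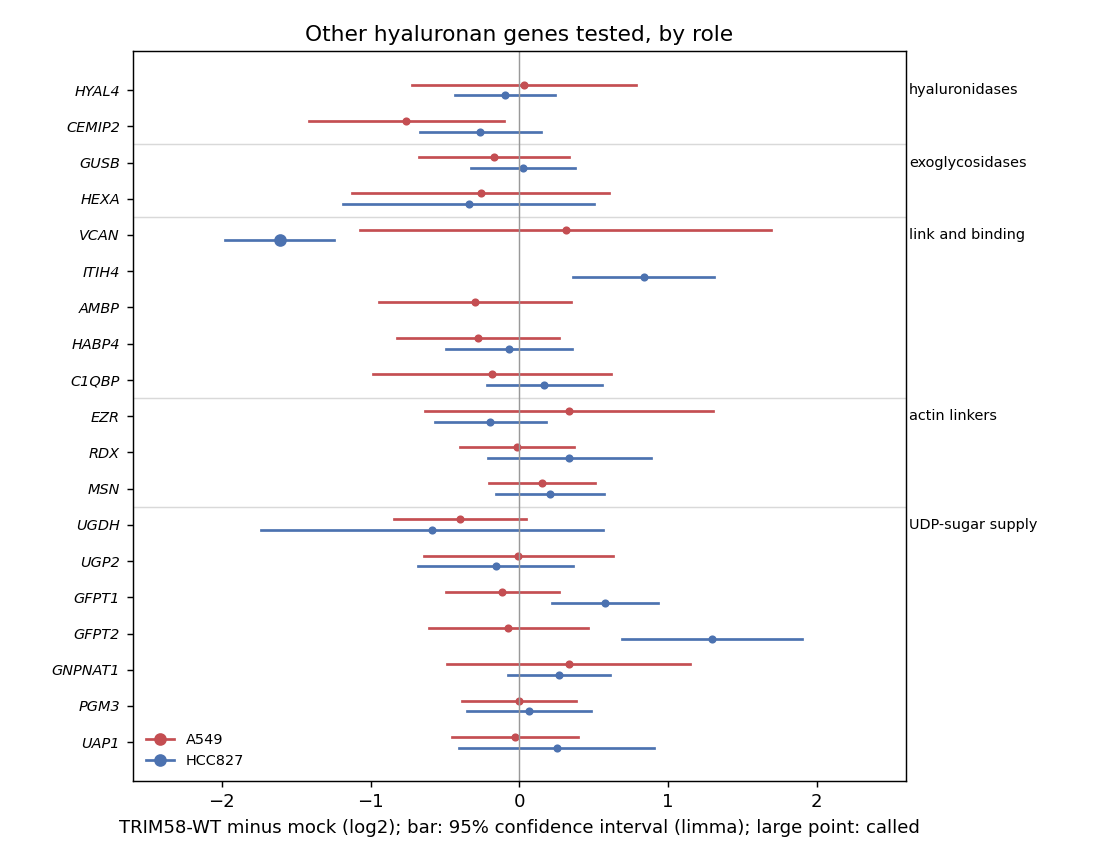
Log2 difference between arrays labelled TRIM58-WT and mock (x axis) with the 95% confidence interval from limma for 19 other hyaluronan genes tested in at least 1 line, grouped by role, in A549 (red) and HCC827 (blue). The large point is the called gene, VCAN at -1.61 in HCC827.

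Genes whose signal ran most like that of HYAL1 and LAYN over the 10 replicates were picked by Pearson correlation among 12841 genes, as a description. For HYAL1 they were NEFL (r = 0.991), a neurofilament subunit, TBC1D31 (r = 0.988) and SYT13 (r = 0.987), a synaptotagmin. Each of these was lower on the A549 arrays labelled TRIM58-WT, by at least 41.5-fold for NEFL, whose TRIM58-WT arrays were at background, and with log2 differences of -1.41 for TBC1D31 and -6.55 for SYT13. For LAYN they were CMTM1 (r = 0.982), P4HA1 (r = 0.975), a subunit of the enzyme that hydroxylates collagen prolines, and the long non-coding RNA LINC01116 (r = 0.972). Their log2 differences in A549 were 1.45, 0.96 and 2.34. These genes were picked for running like HYAL1 or LAYN, so the direction of their differences in A549 follows from the choice. The replicates share lines, slides and groups, so the points are not independent and no p-value is given.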

How the data were processed

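RNA of A549 and HCC827 transfectants was labelled with Cy3 and hybridised in 1 colour to 11 Agilent arrays. The deposited spot intensities had been background-subtracted and detrended by the authors with Agilent Feature Extraction (11.5.1.1 in the file headers, 10.7 in the submitters' processing notes), with no scaling between arrays, and the deposited flags mark spots well above background, saturated or outlying. The authors' table of log2 values served as an alternative, and 95.5% of its values lay within 0.01 of those computed here once a baseline was taken from each probe. Its baseline per probe is not given in the sources used here, so only differences between arrays were read from it. The number of arrays limits the precision. The design of the array predates GRCh38.p14, from which symbols, positions and promoters were taken.

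Control and outlier spots were left out, the mean over the spots of each probe was put on the log2 scale, and each array was shifted by its 75th percentile. Samples were grouped by their labels. Probes well above background (over 0.5 of the spots) on every array of at least 1 group were fitted with lmFit and eBayes (R 4.3.3, limma 3.58.1), per line and for the difference between lines, with Benjamini-Hochberg adjustment over all probes tested. The brightest tested probe stood for a gene. P-values measure the spread between the numbered replicates, which are known to be separate only by their numbers. The fits were tested on simulated data. Of all probes, 28302 carried a RefSeq accession and 27241 were named.

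Genes named were all 10 members, called genes of the list of 36, G2 and mitosis genes beside HMMR, neighbours of the HYAL block and the 3 genes most like HYAL1 and LAYN. COL1A1 and the other markers came from lists of epithelial, lung, leukocyte, endothelial and fibroblast genes. The leukocyte marker CD68 was well above background on every array. A result for 1 further gene of that list is not reported here, and the counts over the list leave it out. The members, lists and tests were chosen with earlier results of these data known. Alternatives were a median shift, quantile normalization, normexp (offset 50), a filter on every array, no filter, the replicate block, both lines in 1 fit, slide as a block, outlier spots kept, 4 mock arrays counted separately, the methods' t-test, the authors' table and each replicate left out. Python 3.11.15 with matplotlib 3.10.9 drew the figures.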

Additional observations from a re-analysis of the deposited data

Results flagged for a closer look

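By the limma contrast of the lines, the change between arrays labelled TRIM58-WT and mock was called different for 3 genes. The A549 change minus the HCC827 change was -8.50 on the log2 scale for HYAL1, 3.36 for LAYN and 2.69 for HAPLN3. These genes were selected with their values known, and the sizes for HYAL1 and LAYN rest in part on background. For HYAL1 no fall could be seen in HCC827, so its loss in A549 had to appear as a difference. HYAL1 was at background on the A549 TRIM58-WT arrays and on all HCC827 arrays, and LAYN was at background on all mock arrays of both lines and on 1 of the 2 HCC827 TRIM58-WT arrays. No group held enough samples for a search for single samples that stand apart.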

How the results depend on the processing

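In A549, HAPLN3 and LAYN were called and HYAL1 was called lower under each alternative that tested them, except that the methods' t-test did not call HYAL1. A filter on every array left 1 called gene among those followed in A549 and 1 in the difference between lines (HAPLN3 in both), because it removed HYAL1 and LAYN, which were dim in 1 group. Leaving out each A549 replicate in turn gave 3 to 4 called genes in A549 and 2 to 4 in the difference. In HCC827 such a fit has 1 replicate in a group, and its count is not given. Shares over all genes were not computed under the alternatives, so the counts in this section have none beside them. HAPLN3 lost its call in the difference with a median shift (2.29), no filter and the replicate block (2.69 under both). With the 4 mock arrays counted separately, 4 genes were called in A549 (CD44 added) and 4 in the difference (HYAL3 added). The median shift lowered the median change in A549 by 0.37 and moved uncalled changes with it, to -0.94 for HYAL2, -0.94 for HYAL3 and -0.79 for HMMR, and to -1.41 for HYAL3 in the difference. Of the list of 36, A549 calls numbered 0 to 1 with a replicate left out and 0 under the other alternatives. HCC827 calls numbered 2 with a median shift and 2 with a filter on every array (GFPT2, named after its values were seen, beside VCAN). They numbered 0 with no filter, 0 with both lines in 1 fit and 0 with the methods' t-test. Under the replicate block 0 were called in HCC827 (VCAN, limma adjusted p = 0.101), 3 of the genes followed were called in A549, 0 in HCC827 and 2 in the difference. The replicate numbers were not taken to pair the samples, since the deviations of same-numbered A549 samples correlated at 0.50, -0.42 and 0.50 and those of HCC827 at 0.08. The slide block used the 4 mock arrays separately, which changes 2 choices together, and left the 3 calls in A549 and in the difference. Signal near background limits HYAL1 and LAYN to bounds, and 2 replicates a group limit HCC827. The 0 calls of the methods' t-test in HCC827 therefore cannot show that these genes were unchanged.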
